A study of Mus musculus with 15 samples.

Results

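The transcripts of β-catenin, of the DNA-binding factors it works through and of the complex that degrades it were followed in adipocytes isolated from mouse dorsal skin by bulk RNA sequencing. The 10 genes were taken by symbol from the 35373 genes of the deposited count table: Ctnnb1, the TCF/LEF factors Lef1, Tcf7, Tcf7l1 and Tcf7l2, the destruction complex genes Apc, Axin1 and Gsk3b, and the coactivators Bcl9 and Bcl9l. All 10 passed the filter on low counts that left 16935 genes for testing. The study asked what activated Wnt signalling does to skin adipocytes, with 15 libraries in 4 groups. Controls carried no Cre (+/+; Rosa26rtTA/Rosa26rtTA; TetOBcat/+) and were taken at postnatal day 23 (P23, n = 3) or 26 (P26, n = 3). Mice of the genotype EngrailedCre/+; Rosa26rtTA/Rosa26rtTA; TetOBcat/+ overexpressed β-catenin for 2 days and were taken at P23 (n = 4), or for 5 days and were taken at P26 (n = 5). All groups, controls included, carried the TetO transgene and were given doxycycline, at 6 g/kg in the food and at 2 mg/mL in the water. EngrailedCre acts in the lineage of Engrailed-expressing cells, so cells of other lineages in the preparation need not carry an active transgene. Duration and age change together between the 2-day and 5-day groups. Whether reads of the transgene are counted under Ctnnb1 is not given in the sources used here.

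β-catenin has 2 pools in a cell: at the membrane it links cadherins to the actin skeleton through α-catenin, and in the cytoplasm it is the messenger of canonical Wnt signalling. Without a Wnt signal, Axin and Apc hold free β-catenin so that casein kinase 1 and Gsk3 phosphorylate it and it is degraded. When that complex is inhibited, β-catenin enters the nucleus, binds TCF/LEF proteins on DNA together with Bcl9 proteins and displaces Groucho (Tle) corepressors. Control of this pathway lies largely in protein stability, so transcript levels do not measure its activity. In adipose tissue the pathway is known to hold back adipocyte differentiation, and Tcf7l2 is the TCF gene most studied there.

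The libraries held 11383421 to 38501753 counts and 13027 to 16663 detected genes. Adipocyte markers were present in every library (all 8 of the list, summed level 8860 to 70838 CPM). CPM are per-million counts of a gene in its library, after scaling by the trimmed mean of M values. Some libraries stood apart. Xist, the RNA that coats the inactive X, was detected in 4 of the 6 controls and in 2-day Wnt replicate 1 (11.3 to 74.0 CPM), and Y-linked transcripts in the other 10 libraries, that is in 8 of the 9 Wnt libraries and 2 of the 6 controls. 2-day Wnt replicate 1 is listed as a control in the authors' deposited sample sheet, against its title and genotype. Its library name also ends in C, as those of the 6 controls do, where the other Wnt library names end in W. 2-day Wnt replicate 1 stayed with the group that its title gives. That library also held hair follicle keratins and 31.7% mitochondrially encoded counts, against 3.69% to 19.4% in the others. P26 control replicate 1 held the most epidermal keratinocyte transcript (3316 CPM summed over 6 markers, against 19.1 to 622 in the others). Because these are bulk preparations, fewer cells of a type and less RNA per cell cannot be told apart. Labels call the replicates biological, and p-values set differences between groups against the spread between these samples.

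None of the 10 genes passed the test in any comparison. With edgeR's quasi-likelihood test on all 15 libraries and Benjamini-Hochberg adjustment over all genes, 0 of the 10 were called at 2 days against P23 controls, at 5 days against P26 controls, in the mean of both effects, in the 5-day minus the 2-day effect, or in P26 against P23 controls. The background was 0% of the 16935 genes in each of these 5 comparisons. At an unadjusted p under 0.05 the 10 genes gave 1 at 2 days (Tcf7l2, lower), 1 at 5 days (Tcf7l1, higher), 0 in the mean, 1 in the difference (Tcf7l2) and 0 between the controls. The share of all genes at that level was 5.17%, 7.06%, 7.85%, 5.72% and 6.98% in the same order, so these counts are close to the background. DESeq2, which called 149, 200, 321, 149 and 286 of all genes in these comparisons, called none of the 10, nor did voom with sample weights, with 0, 226, 11, 0 and 138 calls. Fold changes below are log2 fold changes ± SE from the edgeR fit, and for the 10 genes they are printed where they exceed their SE, and for Ctnnb1 and Lef1 also at both ages and in the mean of both. For other pathway genes the mean of both is printed. The plot of all 10 genes by library shows how far the replicates of a group spread.

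**Figure D1:**
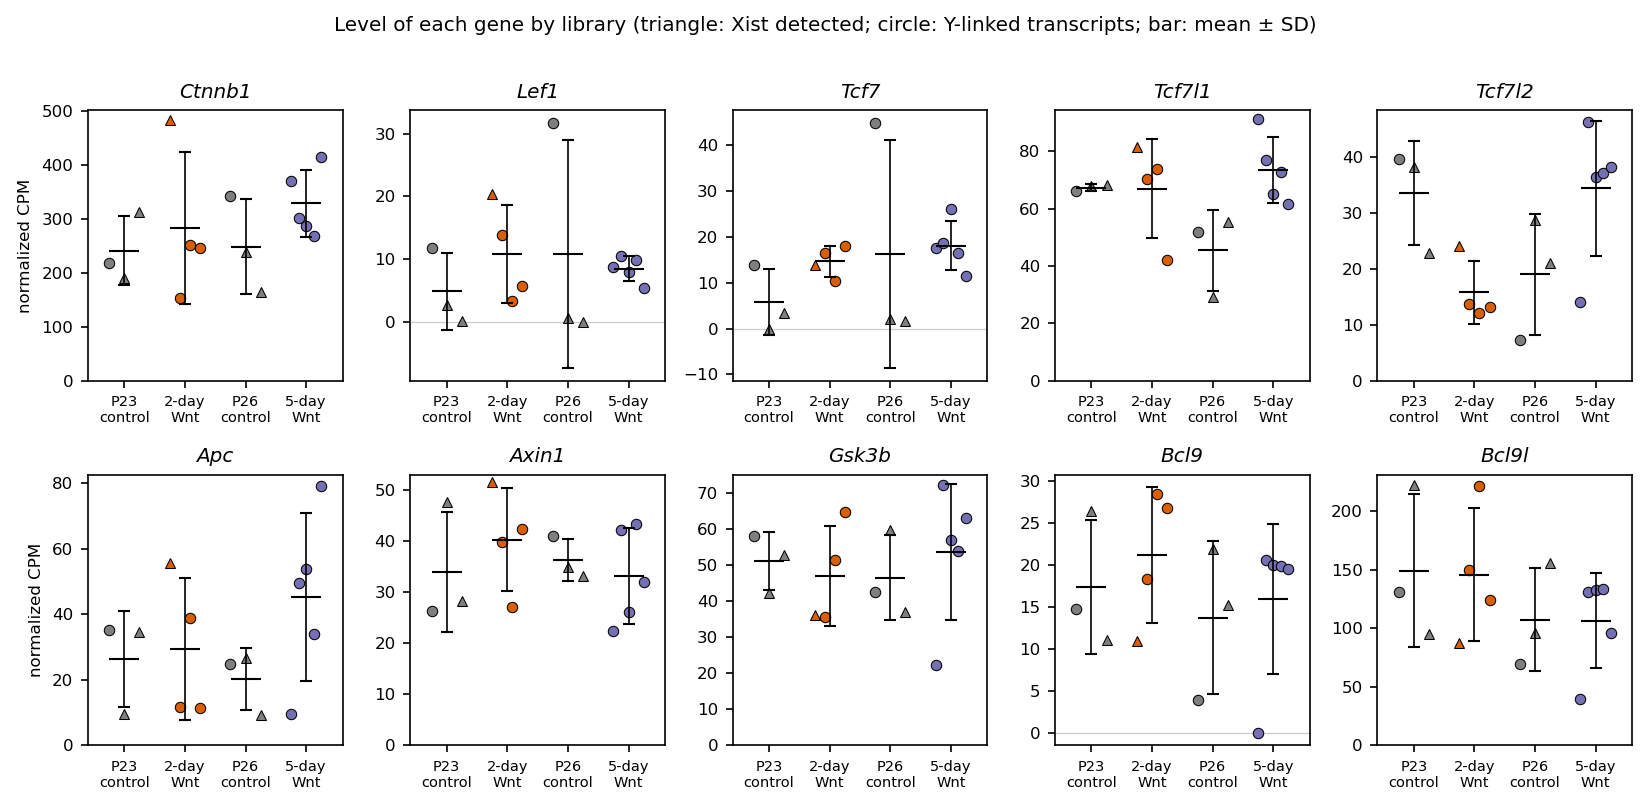
Normalized CPM (vertical axis, a scale per gene) of the 10 genes in each library of the 4 groups (horizontal axis). Circles are libraries with Y-linked transcripts, triangles those with Xist, and the horizontal bar and whiskers are the mean ± SD (whiskers reach below 0 where 1 library lies far above the rest). Lef1 and Tcf7 are high in P26 control replicate 1 (31.8 and 44.8 CPM) and low in the 4 controls with Xist.

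Ctnnb1 (ENSMUSG00000006932, GRCm38 chromosome 9, 120929216 to 120960507, plus strand) encodes β-catenin itself. It stood at 219, 189.8 and 312 CPM in P23 control replicates 1 to 3. The 2-day Wnt libraries held 484, 153, 250.6 and 246 CPM. Values at P26 were 341.4, 239 and 165 CPM in controls and, after 5 days of Wnt activation, 370, 302, 287, 269 and 415 CPM. The groups overlapped at both ages, and the highest and the lowest library of the whole series were both 2-day Wnt libraries. The fold change was 0.24 ± 0.40 at 2 days (adjusted p = 1), 0.40 ± 0.38 at 5 days (adjusted p = 0.938) and 0.32 ± 0.28 in the mean of both (adjusted p = 0.923). Without 2-day Wnt replicate 1 the 2-day value turned to -0.16, with that library as a control it was -0.48 and the mean of both -0.04. Among the 10 libraries with Y-linked transcripts, which leave 1 control per age, the values were -0.03 at 2 days and -0.08 at 5 days.

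Ctnnb1 ran opposite to an adipocyte gene across the libraries, a pattern picked out after the values were seen. Adipoq, which encodes the adipocyte hormone adiponectin, ranged from 370 CPM in P26 control replicate 1 to 5259 CPM in P26 control replicate 3. The 6 libraries with the most Ctnnb1 were the 6 with the least Adipoq (370 to 2809 CPM), and they came from 2 controls, 1 2-day and 3 5-day libraries. Among the 5 libraries with Xist the order of Ctnnb1 was the exact inverse of that of Adipoq, and among the 10 with Y-linked transcripts the 4 highest in Ctnnb1 were the 4 lowest in Adipoq. The plot of Ctnnb1 against Adipoq shows this order. CPM are shares of a library, so a gene's share can move because others move, and the part of this in the Ctnnb1 values was not tested.

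**Figure D2:**
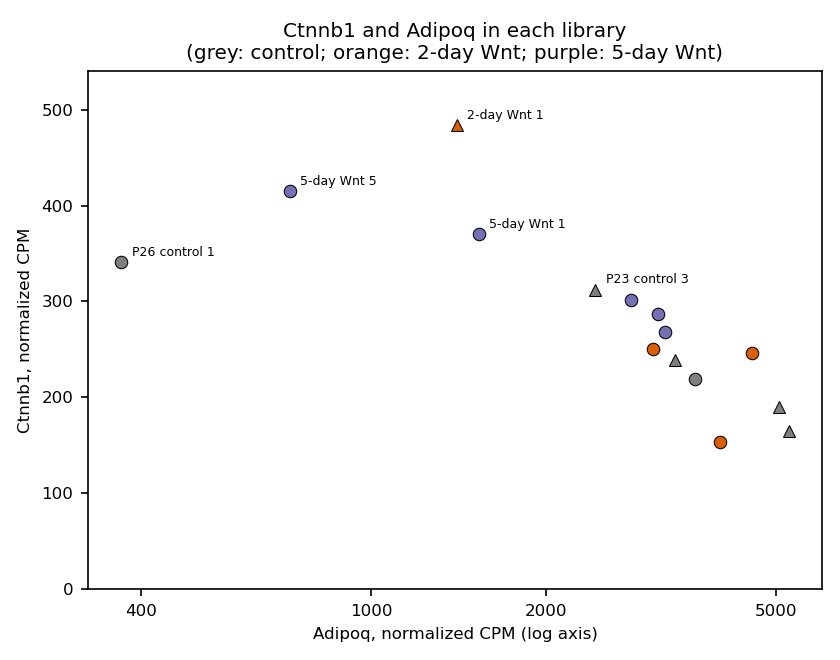
Ctnnb1 (vertical axis, normalized CPM from 0) against Adipoq (horizontal axis, normalized CPM, log axis) with 1 point per library, circles for Y-linked and triangles for Xist libraries. The 5 named libraries have the least Adipoq and the most Ctnnb1, 312 to 484 CPM.

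Lef1 (ENSMUSG00000027985, chromosome 3, 131110471 to 131224356, plus strand) and Tcf7 (ENSMUSG00000000782, chromosome 11, 52252371 to 52283331, minus strand) encode the TCF/LEF factors known mainly as activators when β-catenin is bound, and both are themselves Wnt target genes in several tissues. Lef1 is also a marker of hair follicle matrix and dermal papilla, and Lef1 and Tcf7 are both expressed in T cells. They are set side by side because they were high and low in nearly the same libraries. The 300 bases around a start of each, from RefSeq promoters of GRCm38.p6, are shown with the 50 bases from the RefSeq start onward in capitals. The Lef1 stretch is chr3:131110047-131110346 on the plus strand and the Tcf7 stretch chr11:52282965-52283264 on the minus strand. These RefSeq starts differ from the gene starts in the deposited table: the Lef1 stretch ends before the gene of the table begins, and the Tcf7 stretch lies inside it.
Lef1: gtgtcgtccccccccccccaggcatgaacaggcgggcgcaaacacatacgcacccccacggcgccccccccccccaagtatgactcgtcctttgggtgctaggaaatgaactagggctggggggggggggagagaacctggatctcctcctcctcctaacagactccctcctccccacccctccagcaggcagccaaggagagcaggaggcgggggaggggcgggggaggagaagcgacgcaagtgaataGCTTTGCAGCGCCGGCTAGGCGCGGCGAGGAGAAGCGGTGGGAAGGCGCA
Tcf7: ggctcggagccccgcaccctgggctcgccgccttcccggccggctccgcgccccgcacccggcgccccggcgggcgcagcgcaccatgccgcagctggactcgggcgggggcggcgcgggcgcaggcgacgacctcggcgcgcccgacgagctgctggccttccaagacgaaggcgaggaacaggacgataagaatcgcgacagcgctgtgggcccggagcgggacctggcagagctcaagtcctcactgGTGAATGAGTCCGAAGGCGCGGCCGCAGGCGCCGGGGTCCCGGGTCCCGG

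The TCF/LEF core motif was searched in these and the other RefSeq promoters of the 10 genes as CTTTGAT and CTTTGAA on both strands. The letters of neither were found in the 13 promoters of 7 genes (Bcl9, Lef1, Tcf7l1, Ctnnb1, Tcf7, Gsk3b and Tcf7l2). Of all 32851 mouse promoters of the same length, 3.73% held CTTTGAT, 5.14% CTTTGAA and 8.65% either. Axin1 and Bcl9l had no entry, and Apc was not examined because chromosome 18 was left out. Each window covers 250 bases before and 50 after a start, and sites elsewhere were not searched.

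Lef1 stood at 11.7, 2.71 and 0.161 CPM in the P23 controls and at 20.5, 13.9, 3.35 and 5.68 CPM at 2 days. In the P26 controls it held 31.8, 0.594 and 0 CPM, the last from 0 counts, where 3 counts would be 0.135 CPM. The 5-day libraries lay close together at 8.80, 10.4, 7.98, 9.91 and 5.35 CPM. At P26 the controls spanned the whole range of the Wnt libraries, and at P23 the groups overlapped. The fold change was 1.15 ± 1.44 at 2 days (adjusted p = 1), -0.34 ± 1.33 at 5 days (adjusted p = 0.999) and 0.41 ± 0.98 in the mean of both (adjusted p = 1). Replicate 1 of the P26 controls set the 5-day value: without it the fold change was 4.79 ± 1.58 (adjusted p = 0.584).

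Tcf7 showed the same layout at a higher level. The P23 controls held 13.9, 0 and 3.35 CPM, with 2-day values of 13.7, 16.4, 10.4 and 17.9 CPM. The P26 controls held 44.8, 2.01 and 1.61 CPM, with 5-day values of 17.5, 18.7, 26.1, 16.3 and 11.4 CPM. Replicate 1 of each control group lay at or above the Wnt libraries of its age, apart from 2-day replicates 2 and 4, and the other 4 controls lay below all 9 Wnt libraries. The fold change at 2 days was 1.34 ± 1.22 (adjusted p = 1) and at 5 days it was smaller than its SE. Between the controls, P26 minus P23, it was 1.49 ± 1.28 (adjusted p = 0.895), and it turned to -1.67 without P26 control replicate 1.

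The split of Lef1 and Tcf7 among controls was also the split by sex-linked transcripts. Every Wnt library, 9 of 9, exceeded the 4 controls with Xist in both genes, where Lef1 reached at most 2.71 CPM and Tcf7 at most 3.35 CPM. Such separation held for 0.419% of all genes (71 of 16935), and these 4 controls were set apart after the values were seen, so it is a description. Both controls with Y-linked transcripts, replicate 1 of each age, lay among or above the Wnt libraries. Within the 10 libraries with Y-linked transcripts, with 1 control per age, Lef1 stood at -0.62 ± 0.88 at 2 days (adjusted p = 1) and -1.92 ± 0.76 at 5 days (adjusted p = 0.185). In the same libraries Tcf7 stood at 0.09 ± 0.64 at 2 days (adjusted p = 1) and -1.34 ± 0.55 at 5 days (adjusted p = 0.201). Among libraries with Xist only 1 was titled Wnt, 2-day replicate 1, which the sample sheet lists as a control. That library held 20.5 CPM of Lef1 and 13.7 CPM of Tcf7. The P23 controls with Xist held 2.71 and 0.161 CPM of Lef1 and 0 and 3.35 CPM of Tcf7. At P26 no Wnt library held Xist, so sex and genotype cannot be told apart there but for 1 control.

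Transcripts of other cell types lay beside these values. The 2 libraries with the most Lef1, P26 control replicate 1 and 2-day Wnt replicate 1, also held the most of 9 hair follicle matrix and inner root sheath markers (897 and 3611 CPM summed, all 9 detected). That sum ran from 0.905 to 6.19 CPM in the P23 controls, from 0 to 3611 at 2 days, from 2.96 to 897 in the P26 controls and from 12.3 to 267 at 5 days. 2-day Wnt replicate 2 held Lef1 at 13.9 CPM with all 9 of these markers at 0. The 5 dermal papilla markers summed to 3.87 to 10.7 CPM in the P23 controls, 3.44 to 12.98 at 2 days, 2.41 to 50.9 in the P26 controls and 9.99 to 24.4 at 5 days, and Sox2 was at 0 in 10 libraries. The 6 T cell markers summed to 1.34 to 4.03 CPM in the P23 controls, 0 to 14.7 at 2 days, 2.42 to 11.2 in the P26 controls and 2.12 to 15.2 at 5 days. 2-day Wnt replicate 4 held Tcf7 at 17.9 CPM with all 6 T cell markers at 0. The 4 melanocyte markers summed to 12.7 to 30.4 CPM in the P23 controls, 12.03 to 316 at 2 days, 12.3 to 346 in the P26 controls and 30.7 to 204 at 5 days. They were at 12.3 to 18.5 CPM in the 4 controls with Xist and highest in P26 control replicate 1 and 2-day Wnt replicate 1, the same libraries as for Lef1. What these cells add to Lef1 and Tcf7 in the other libraries was not tested. The gene Lef1os1 lies antisense to Lef1, and whether counting used the strand is not given in the sources used here.

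Tcf7l1 (ENSMUSG00000055799, chromosome 6, 72626378 to 72789254, minus strand) encodes the factor known chiefly as a repressor of Wnt targets in the absence of β-catenin. It was the steadiest of the TCF/LEF genes, with 66.0, 67.8 and 68.2 CPM in the P23 controls and 81.6, 70.4, 73.9 and 42.0 CPM at 2 days. The P26 controls held 51.9, 29.2 and 55.2 CPM, with 5-day values of 91.2, 77.1, 65.0, 72.8 and 61.7 CPM. Tcf7l1 was the one gene of the 10 whose groups did not overlap: every 5-day library lay above every P26 control. The background of such separation at 5 days was 3.63% of genes with all Wnt libraries above and 2.25% with all below. At 2 days, where none of the 10 separated, it was 2.24% above and 2.91% below. The fold change at 5 days was 0.69 ± 0.30 (adjusted p = 0.695) and at 2 days it was smaller than its SE. The mean of both was 0.34 ± 0.22 (adjusted p = 0.766) and the 5-day minus the 2-day effect 0.70 ± 0.43 (adjusted p = 0.964). P26 controls lay below P23 controls by value, -0.57 ± 0.33 (adjusted p = 0.720), and 4 of the 5 5-day libraries lay within the range of the 2-day libraries.

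Tcf7l2 (ENSMUSG00000024985, chromosome 19, 55741820 to 55933654, plus strand), which encodes TCF4, was the only one of the 10 whose effects at the 2 ages exceeded their SE in opposite directions. The P23 controls held 39.8, 38.3 and 22.9 CPM, with 2-day values of 24.2, 13.7, 12.2 and 13.2 CPM. All 2-day libraries but replicate 1 lay below every P23 control. Values at P26 were 7.34, 28.7 and 21.03 CPM in controls and, at 5 days, 14.1, 46.3, 36.4, 37.2 and 38.2 CPM. All 5-day libraries but replicate 1 lay above every P26 control. The fold change was -1.09 ± 0.47 at 2 days (adjusted p = 0.919) and 0.86 ± 0.47 at 5 days (adjusted p = 0.713). Their difference, tested in the same fit, was 1.95 ± 0.67 (adjusted p = 0.810), and P26 minus P23 controls stood at -0.82 ± 0.51 (adjusted p = 0.741). The lowest value of all came from P26 control replicate 1, the library with the least Adipoq. The difference kept its sign in all 25 alternatives (1.58 to 3.83), as did that of Tcf7l1, Apc, Axin1 and Gsk3b. Without P26 control replicate 1 the difference of Tcf7l2 was 1.58 ± 0.61 (adjusted p = 0.892). It was called in 1 alternative, the libraries with Y-linked transcripts (3.83). The only P26 control there is replicate 1, with the lowest Tcf7l2 of all. In that fit 2.15% of all genes (411 of 19131) were called in the difference, and each control group is 1 library, assumed to vary like the other groups.

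The plot of effects by processing sets these genes side by side. Tcf7l2 kept its sign at both ages in all 25 alternatives (-1.62 to -0.94 at 2 days, 0.48 to 2.21 at 5 days). At 5 days Tcf7l1, Apc and Gsk3b also kept theirs in all 25, and at 2 days Tcf7 did in all 24. Without P26 control replicate 1 the 5-day value of Tcf7l2 was 0.48 ± 0.45 and its P26 minus P23 control value -0.45 ± 0.49. Lef1 ranged from -1.92 to 5.36 at 5 days over 24 alternatives.

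**Figure D3:**
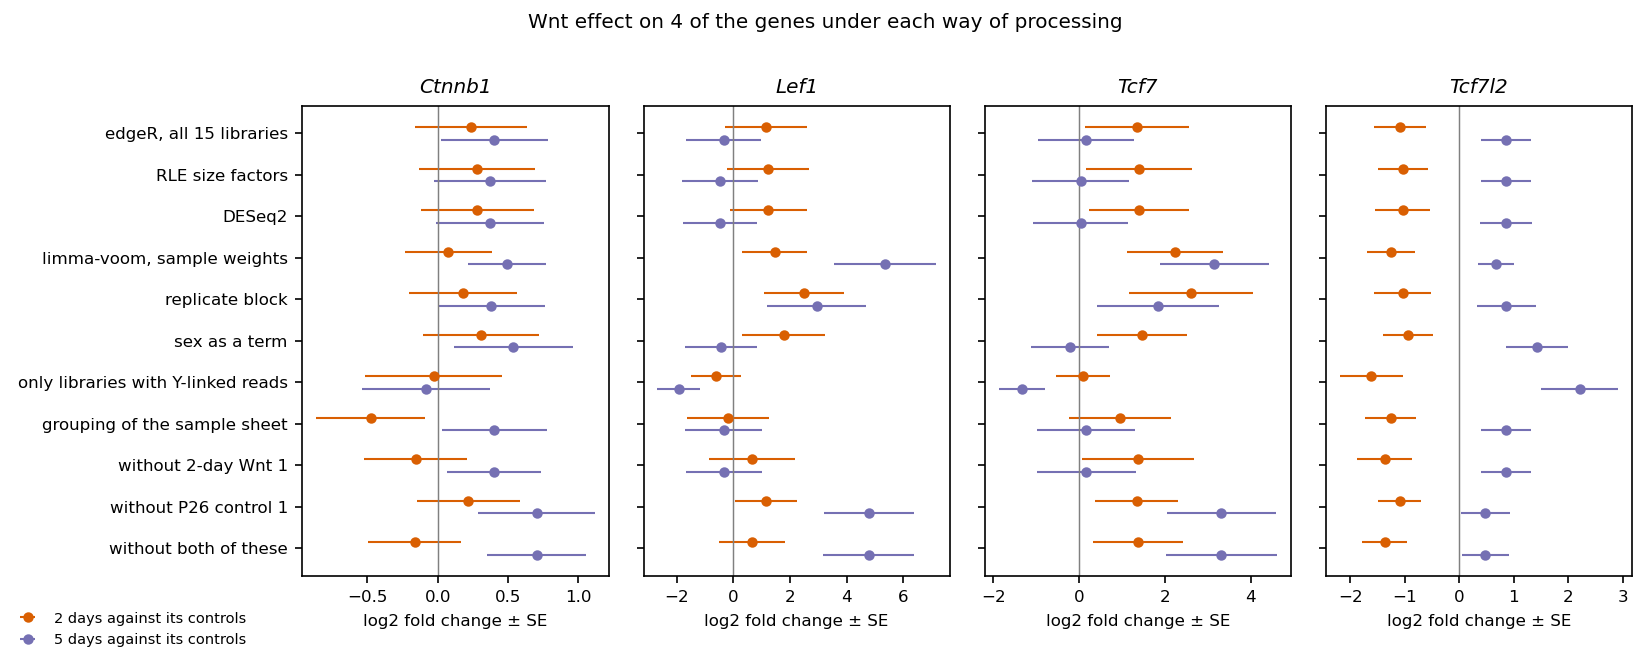
Log2 fold change ± SE (horizontal axis) of Ctnnb1, Lef1, Tcf7 and Tcf7l2 at 2 days (orange) and 5 days (purple), each against controls of its age, under the edgeR fit of all 15 libraries and 10 of the alternatives (vertical axis). Tcf7l2 stays left of 0 at 2 days and right of 0 at 5 days, while Lef1 at 5 days lies between -1.92 and 5.36.

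Levels of different genes were compared per kb of exons in the GENCODE M21 annotation, as medians over the 15 libraries. Ctnnb1 came first at 51.7 CPM per kb, followed by Tcf7l1 (17.3), Bcl9l (16.4), Axin1 (9.13), Gsk3b (5.36), Tcf7 (5.29), Tcf7l2 (2.75), Bcl9 (2.31), Apc (2.11) and Lef1 (0.908). Ctnnb1 alone was clear of the rest: its lowest library, 29.5 CPM per kb, lay above the highest library of any other, 27.8 CPM per kb in Bcl9l. All other neighbours in this order overlapped across libraries. The lengths take all annotated exons of a gene together, so they overstate the length of the transcripts present. The span of Tcf7 in the deposited table differs from that in M21, so its length may not match the model counted, and its place in the order and the shares that follow rest on it.

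**Figure D4:**
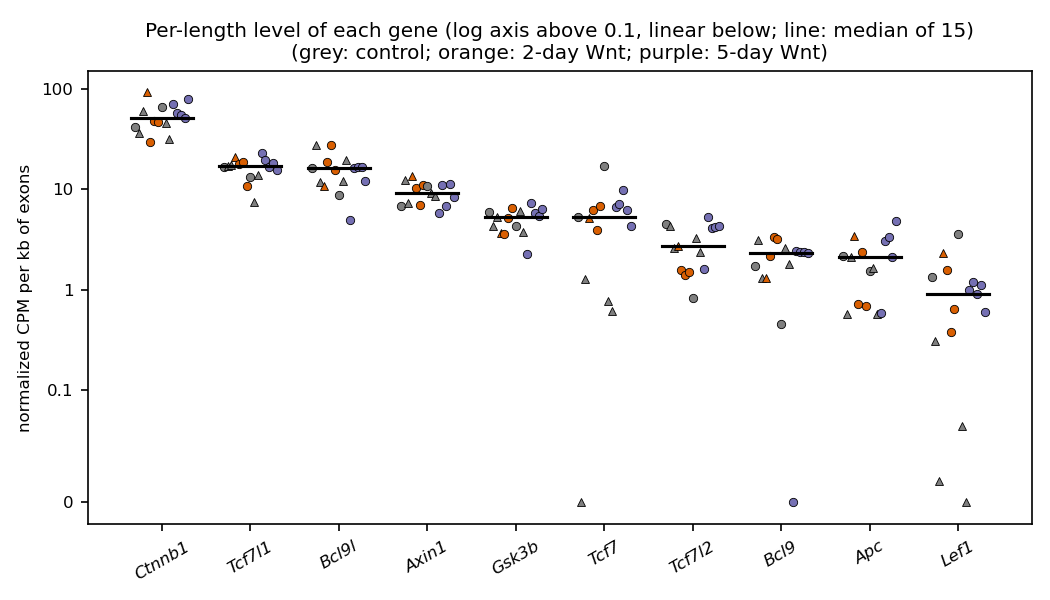
Normalized CPM per kb of exons (vertical axis, log above 0.1 and linear below) for each gene (horizontal axis, ordered by median), with 1 point per library, circles for Y-linked and triangles for Xist, and a line at the median. Ctnnb1, at a median of 51.7, lies above all other genes, and Lef1, at 0.908, spreads from 0 to 3.61.

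On this per-length scale Tcf7l1 made up most of the TCF/LEF transcript. Its share of the summed CPM per kb of the 4 genes was 73.5 ± 11.7% in the P23 controls (SD, n = 3), 65.9 ± 9.13% at 2 days (n = 4), 61.6 ± 22.3% in the P26 controls (n = 3) and 61.5 ± 6.84% at 5 days (n = 5). Lef1 and Tcf7 together held 1.41% and 6.09% in P23 control replicates 2 and 3 and 7.22% and 3.603% in P26 control replicates 2 and 3. In the controls with Y-linked transcripts they held 23.7% (P23) and 59.5% (P26). The 2-day libraries gave 24.3%, 28.6%, 17.6% and 38.0%, and the 5-day libraries 23.6%, 24.998%, 34.3%, 24.4% and 19.8%. All Wnt libraries thus lay above the 4 controls with Xist, and replicate 1 of the P26 controls lay above all Wnt libraries. Tcf7l2 held 16.1 ± 3.82% in the P23 controls and 6.97 ± 1.55% at 2 days, without overlap. Its share was 14.9 ± 12.97% in the P26 controls and 13.1 ± 4.83% at 5 days, with overlap. A share falls when another gene of the sum rises, so these are not independent of the levels above. The plot of shares gives them by library.

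**Figure D5:**
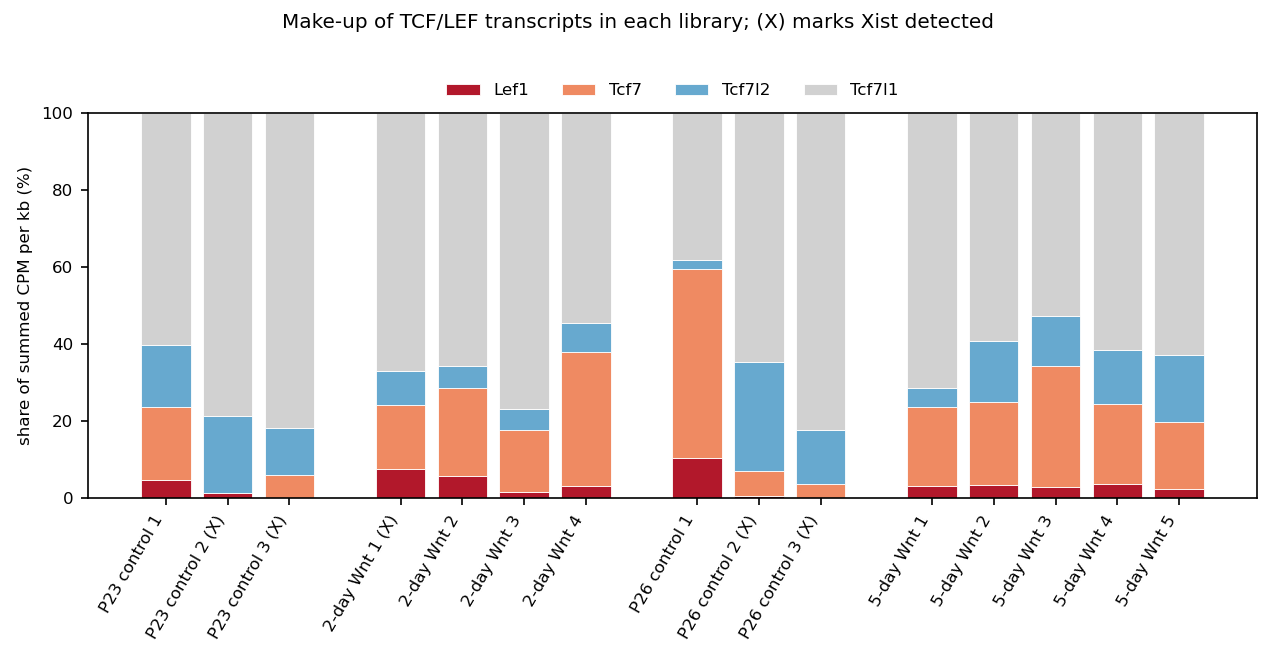
Share of each TCF/LEF gene in the sum of the 4 (vertical axis, percent of summed CPM per kb) in every library (horizontal axis, libraries with Xist marked X). The Lef1 and Tcf7 segments together take 59.5% in P26 control replicate 1, 17.6% to 38.0% in the Wnt libraries and at most 7.22% in the controls with Xist.

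The destruction complex genes showed no separation of groups. Apc (ENSMUSG00000005871, chromosome 18, 34220924 to 34322552, plus strand), the scaffold lost in familial polyposis, held 35.1, 9.37 and 34.5 CPM in the P23 controls and 55.6, 11.6, 38.7 and 11.2 CPM at 2 days. It held 24.7, 26.5 and 9.28 CPM in the P26 controls and 9.48, 49.3, 53.8, 34.1 and 79.0 CPM at 5 days. Each group held libraries between 9.28 and 11.6 CPM and others at 24.7 CPM or more, and 4 of the 5 5-day libraries lay above every P26 control. The fold change was 1.16 ± 0.67 at 5 days (adjusted p = 0.732) and 0.66 ± 0.47 in the mean of both (adjusted p = 0.844), and the 5-day minus the 2-day effect 1.01 ± 0.93 (adjusted p = 1).

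Axin1 (ENSMUSG00000024182, chromosome 17, 26138688 to 26195811, plus strand), the limiting scaffold of the complex, was the least variable of the 10 genes on the CPM scale, from 22.3 to 51.6 CPM with a median of 34.9. Gsk3b (ENSMUSG00000022812, chromosome 16, 38089001 to 38246084, plus strand), the kinase that marks β-catenin for degradation, ran from 22.3 to 72.4 CPM with a median of 52.7. By group Axin1 averaged 34.0 ± 11.8 (P23 controls), 40.3 ± 10.1 (2 days), 36.4 ± 4.10 (P26 controls) and 33.2 ± 9.42 CPM (5 days). The corresponding means of Gsk3b were 51.1 ± 8.08, 46.9 ± 13.9, 46.5 ± 11.9 and 53.8 ± 18.9 CPM. All Wnt effects on both genes were smaller than their SE, and the groups overlapped at both ages. Both were lowest in 5-day Wnt replicate 1.

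The 16 further partners and regulators of the complex went both ways. At 2 days 6 lay higher and 10 lower with a median of -0.07, and at 5 days 7 lay higher and 9 lower with a median of -0.09, beside medians of 0 and 0.03 over all genes. None was called at either age or in the mean of both. In that mean 2 of the 16, Axin2 and Rnf146, had an unadjusted p under 0.05, beside 7.85% of all genes. Rnf146, a ubiquitin ligase that destroys Axin, stood at -0.80 ± 0.30 in the mean of both (adjusted p = 0.488), and at -0.074 ± 0.37 within the libraries with Y-linked transcripts. Its CPM were 238, 141 and 360.6 in the P23 controls and 83.8, 118, 95.6 and 159 at 2 days, and 56.6, 199.4 and 161 in the P26 controls and 79.7, 120.1, 102, 139 and 58.8 at 5 days. The groups overlapped at both ages. Fbxw11, a receptor subunit of the ligase that takes phosphorylated β-catenin, stood at -0.56 ± 0.29 (adjusted p = 0.683). Apc2, a relative of Apc, was at 0 in all P23 controls and at most 4.08 CPM anywhere, and no fold is given.

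Bcl9 (ENSMUSG00000038256, chromosome 3, 97203662 to 97297917, minus strand) and Bcl9l (ENSMUSG00000063382, chromosome 9, 44482825 to 44511896, plus strand) encode the related adaptors that tie β-catenin to Pygopus. Bcl9 held 14.8, 26.4 and 11.1 CPM in the P23 controls and 10.96, 18.4, 28.5 and 26.8 CPM at 2 days. In the P26 controls it held 3.90, 21.9 and 15.2 CPM, and at 5 days 0, 20.5, 19.95, 19.9 and 19.5 CPM. Bcl9l stood at a level far above, with 131, 222 and 94.8 CPM in the P23 controls and 87.1, 150.2, 222 and 124 CPM at 2 days, and with 69.6, 96.3 and 156 CPM in the P26 controls and 39.7, 131, 133, 134 and 95.9 CPM at 5 days. Both adaptors were lowest in 5-day Wnt replicate 1 and second lowest in P26 control replicate 1. The groups overlapped at both ages and no Wnt effect on either gene exceeded its SE. 5-day Wnt replicate 1 had the fewest counts of all libraries, 11383421, and was the lowest library for 4 of the 10 genes (Axin1, Gsk3b, Bcl9 and Bcl9l). It was the highest library for Tcf7l1. With 0 counts of Bcl9, where 3 counts would be 0.254 CPM, a low level in that library is measured only down to this floor.

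Of 11 further nuclear coactivators, 4 lay higher and 7 lower at 2 days (median -0.15), and 8 lay higher and 3 lower at 5 days (median 0.34), with none called. In the mean of both, 6 lay higher and 5 lower with a median of 0.07. Smarca4, the ATPase of a chromatin remodeller, was the only one at an unadjusted p under 0.05 there, at -0.44 ± 0.20 (adjusted p = 0.605). Ep300, a histone acetyltransferase, stood at 0.63 ± 0.36 (adjusted p = 0.721), and Hipk2, a nuclear kinase, at -0.73 ± 0.35 (adjusted p = 0.644). Hipk2 held 26.2 CPM in P26 control replicate 1 and 25.3 to 42.3 CPM in 5-day replicate 1 and 2-day replicate 1, and 66.3 to 189.0 CPM elsewhere. Pygo1, a Pygopus gene, stayed between 0 and 13.4 CPM.

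The 12 corepressors and inhibitors gave 8 higher and 4 lower at 2 days (median 0.08) and 7 higher and 5 lower at 5 days (median 0.05), with none called and none at an unadjusted p under 0.05 in the mean of both. Hdac1, a histone deacetylase, stood at 0.91 ± 0.71 (adjusted p = 0.886) and Ctbp2, a corepressor, at -0.47 ± 0.30 (adjusted p = 0.777). The Groucho gene Tle3 ran from 68.1 to 203 CPM and Tle4 from 2.89 to 43.8 CPM.

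Among 8 adherens junction genes, which serve the other pool of β-catenin, 7 lay higher and 1 lower at 2 days (median 0.59), and 5 lay higher and 3 lower at 5 days (median 0.27), with none called. Cdh11, a cadherin of mesenchymal cells, stood at 1.44 ± 0.49 in the mean of both (adjusted p = 0.482) and was the only one of the 8 at an unadjusted p under 0.05 there. Cdh11 held 5.85, 1.01 and 3.97 CPM in the P23 controls and 11.8, 4.34, 26.6 and 5.92 CPM at 2 days. At P26 it held 16.9, 12.0 and 7.18 CPM in the controls and 23.1, 22.2, 14.4, 18.98 and 53.2 CPM at 5 days. The groups overlapped at both ages, and summed fibroblast markers (8 genes, all detected) ran from 9256 to 10068 CPM in the P23 controls, 9606 to 27973 at 2 days, 5264 to 24451 in the P26 controls and 15363 to 79831 at 5 days. 5-day replicate 5 was the highest library for Cdh11 and for the fibroblast sum, and the part of the latter in the former was not tested. Cdh3, the placental cadherin found in hair follicles, stood at 1.80 ± 1.47 (adjusted p = 0.909) and at -0.28 ± 1.35 within the libraries with Y-linked transcripts. P26 control replicates 2 and 3 held 0 CPM of Cdh3, so no fold is given without replicate 1, which held 17.4 CPM. Cdh1, the epithelial cadherin, held 200.3 CPM in P26 control replicate 1, the library with the most keratinocyte transcript, and 0 to 62.9 CPM in the others. Jup, plakoglobin, held 612 CPM in that control and 49.2 to 185 CPM in the others, and the part of keratinocytes in these values was not tested. Jup stood at 0.81 ± 0.49 at 2 days (adjusted p = 0.986) and -1.58 ± 0.45 at 5 days (adjusted p = 0.593), with a difference of -2.38 ± 0.67 (adjusted p = 0.810) and a mean of -0.39 ± 0.33 (adjusted p = 0.923). Without that control the 5-day value was -0.43 ± 0.36, the difference -1.22 ± 0.50 and the mean 0.18. Within the libraries with Y-linked transcripts, where that control is the only one at P26, Jup stood at -2.67 ± 0.38 at 5 days and -3.67 ± 0.70 in the difference.

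The 11 target genes used as readouts of β-catenin/TCF activity lay mostly higher. Of all genes 49.4% lay higher at 2 days, 51.6% at 5 days and 51.5% in the mean of both. Rnf43, Lgr5 and Sp5 stayed at or below 8.10 CPM in every library, so their signs carry little. At 2 days 8 lay higher and 2 lower with a median of 1.03, or 1.19 without Sp5, which was at 0 in all 7 libraries. Replicate 1 of the 2-day group carried much of that median, which was 0.30 without it and 0.17 within the libraries with Y-linked transcripts. At 5 days 8 lay higher and 3 lower with a median of 0.33, which was 2.01 without P26 control replicate 1, and in the mean of both 9 lay higher and 2 lower with a median of 0.48. None of the 11 was called at either age or in the mean of both. 4 of the 11 had an unadjusted p under 0.05 in the mean of both, Axin2, Nkd1, Nkd2 and Rnf43, beside 7.85% of all genes. Of these, Rnf43 was at most 4.398 CPM in any library. Nkd1 and Nkd2 are named after their values were seen.

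Axin2 encodes a feedback inhibitor related to Axin1. It held 39.8, 8.36 and 5.48 CPM in the P23 controls and 10.01, 27.6, 65.0 and 43.5 CPM at 2 days. In the P26 controls it was 34.8, 9.07 and 4.17 CPM, and in the 5-day libraries 28.2, 62.8, 37.2, 43.6 and 44.8 CPM. Its mean effect was 1.23 ± 0.52 (adjusted p = 0.568), and within the libraries with Y-linked transcripts it was 0.23 ± 0.40. Axin2 was at most 10.01 CPM in the 5 libraries with Xist and at least 27.6 CPM in the 10 with Y-linked transcripts. The share of all genes that separate these libraries so was not determined, so this is a description only. 2-day Wnt replicate 1 lay near the controls with Xist in Axin2 and with the Wnt libraries in Lef1 and Tcf7.

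Nkd1, a feedback inhibitor that binds Dishevelled, held 22.4, 22.98 and 7.32 CPM in the P23 controls and 28.7, 38.5, 45.2 and 67.5 CPM at 2 days, without overlap. At 2 days 2.24% of all genes had every Wnt library above every control. Nkd1 held 68.2, 35.3 and 33.7 CPM in the P26 controls and 81.0, 95.6, 106.8, 64.1 and 71.6 CPM at 5 days, with overlap by replicate 4 alone. The mean effect was 1.12 ± 0.30 (adjusted p = 0.324), and DESeq2 called it (1.11 ± 0.31, adjusted p = 0.0237). Within the libraries with Y-linked transcripts Nkd1 stood at 0.72 ± 0.35 (adjusted p = 0.402). Nkd2, its relative, stood at 1.92 ± 0.73 (adjusted p = 0.488). Without P26 control replicate 1 it was called at 3.72 ± 0.54 (adjusted p = 0.0334), in a fit that called 2 of 17899 genes in the mean of both. The P26 controls left in that fit both held Xist and every 5-day library Y-linked transcripts, so sex and genotype cannot be told apart there. Within the libraries with Y-linked transcripts Nkd2 was 0.46 ± 0.42 (adjusted p = 0.691). Among the P26 controls Nkd2 held 49.4 CPM in replicate 1 and 1.95 and 0.852 CPM in replicates 2 and 3, a layout like that of Lef1 and Tcf7. At P23 the layout differed from theirs. The P23 controls held 7.96, 1.01 and 5.19 CPM of Nkd2 and the 2-day libraries 53.2, 9.18, 24.8 and 17.1 CPM, without overlap, as for Nkd1. Lgr5, a receptor for R-spondins, stayed at or below 8.10 CPM (2.49 ± 1.62, adjusted p = 0.781), and Znrf3, a ligase that removes Wnt receptors, stood at -0.46 ± 0.43 (adjusted p = 0.947). Rnf43, its relative, was at 0 in all P26 controls and at most 4.398 CPM anywhere, and no fold is given.

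Genes whose pattern was most like that of Lef1, Ctnnb1 and Tcf7l2 were ranked among 10965 genes by Pearson's r of log2 CPM over the 15 libraries. For Lef1 they were Runx2 (r = 0.92), Rspo1 (0.90), Cntfr (0.86), Zfp553 (0.86) and Mybpc1 (0.84). For Ctnnb1 they were Usp16 (r = 0.94), Ammecr1 (0.93), Mef2c (0.92), Zc3h13 (0.91) and Gpsm2 (0.91). Those of Tcf7l2 were Adgrl2 (r = 0.84), Zbtb41 (0.83), Mr1 (0.83), Rhobtb3 (0.83) and Kansl1 (0.79). These r are the highest of a ranking and serve as a description only, over points that share library, depth and cell content. Rspo1, which encodes an R-spondin that strengthens Wnt signalling, held 9.15, 5.43 and 4.16 CPM in the P23 controls and 16.1, 13.1, 4.07 and 7.93 CPM at 2 days, and 18.3, 2.87 and 2.42 CPM in the P26 controls and 13.6, 11.03, 12.3, 7.56 and 6.71 CPM at 5 days. Like Lef1 it was highest in P26 control replicate 1 and 2-day Wnt replicate 1.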

How the data were processed

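Gene counts of the 15 libraries were used as deposited, 1 whole-number count per gene and library. Per the labels' protocols, the libraries were made from total RNA with an mRNA kit. Per the submitters' processing notes, the authors worked with Trimmomatic 0.39, SAMtools 1.9, Cufflinks 2.2.1, DESeq2 1.40.1 and the mouse build mm10 (GRCm38). For the aligner, the counter, the strand setting and reads shared by overlapping genes, nothing was given in the sources used here. Lef1 overlaps the antisense gene Lef1os1, Ctnnb1 overlaps Ulk4 and Bcl9l overlaps Cxcr5, so reads in those overlaps are uncertain.

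Samples were grouped by the genotype and duration in their labels. In R 4.3.3, edgeR 4.0.16 (limma 3.58.1) removed 18438 genes with low counts (filterByExpr) and kept 16935. Libraries were scaled by TMM, and 1 robust quasi-likelihood model of the 4 groups gave all 5 comparisons. The SE is the absolute log2 fold change over the square root of F. P-values were adjusted over all genes by Benjamini-Hochberg with a threshold of 0.05. Log2 CPM used a prior count of 2, and 3 counts serve as the floor of a library with 0, which covers counting error only. Alternatives were DESeq2 1.42.0 (also giving size factors), voom with sample weights, other filters, a sex term, a replicate block, the sample sheet's grouping, omission of libraries, and libraries with Y-linked transcripts alone.

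The 10 genes, the pathway lists and the marker lists were chosen with earlier results of these data known. Named pathway genes were those with the 2 highest and 2 lowest log2 fold changes of each list in the mean of both effects, and Axin2. Likeness was ranked among kept genes whose log2 CPM averaged 1 or more, predicted genes and pseudogenes left out. Nkd1 and Nkd2, and the rule of printing folds larger than their SE, were chosen after values were seen.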

Additional observations from a re-analysis of the deposited data

Results flagged for a closer look

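In 20 sets of 4 or 5 libraries (the 10 genes in both Wnt groups), 2 held a library far from the others by Dixon's criterion, where chance flags about 5% of such sets. Tcf7l2 in 2-day Wnt replicate 1 was 24.2 CPM, and replicates 2 to 4 lay between 12.2 and 13.7 CPM. This is the library that the authors' deposited sample sheet lists as a control. Bcl9 in 5-day Wnt replicate 1 was 0 CPM, and replicates 2 to 5 lay between 19.5 and 20.5 CPM. This is the library with the fewest counts, 11383421.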

How the results depend on the processing

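No gene was called under RLE size factors, without a filter, with a minimum of 10 counts, with the sample sheet's grouping or with a sex term, in any comparison. Counts of called genes at 2 days, at 5 days, in the mean of both, in the difference and between controls were 149, 200, 321, 149 and 286 with DESeq2, and 0, 226, 11, 0 and 138 with voom sample weights. Without both 2-day Wnt replicate 1 and P26 control replicate 1 they were 0, 4, 1, 0 and 0, and with Y-linked libraries alone 0, 903, 447, 411 and 537. Leaving out 1 library at a time gave 0 to 0, 0 to 4, 0 to 3, 0 to 2 and 0 to 5. Replicate numbers were not used as pairs in the main fit. Deviations of log2 CPM from the group mean were correlated over all genes kept, between replicates 1 to 3 of a control group and of its Wnt group. For same-numbered libraries these correlations ran from -0.009 to 0.16. Among these replicates each P26 control was closest to the 5-day library of its own number. Of the P23 controls only replicate 2 was closest to the 2-day library of its number. Later replicates of the Wnt groups were not compared. Whether the numbers mark pairs was not tested. A replicate block gave 5 calls between controls and 0 elsewhere, and turned Lef1 at 5 days to 2.94.

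The following log2 fold changes turned their sign, and the cause was not tested. With the sample sheet's grouping Ctnnb1 was -0.48 at 2 days and -0.036 in the mean of both, Lef1 -0.19 and -0.27, and Cdh3 -0.047 in the mean. With Y-linked libraries alone Ctnnb1 was -0.029 at 2 days, -0.083 at 5 days and -0.056 in the mean, Lef1 -0.62 at 2 days and -1.27 in the mean, Cdh3 -0.28 and Hipk2 0.53 in the mean. With voom sample weights Lef1 was 5.36 at 5 days, Tcf7 -0.42 between controls and Jup 0.12 in the mean. Without both libraries Ctnnb1 was -0.16 at 2 days, Lef1 4.79 at 5 days, Tcf7 -1.67 between controls and Jup 0.044 in the mean. Leaving out 1 library at a time, Ctnnb1 at 2 days ran from -0.16 to 0.44, Lef1 at 5 days from -0.93 to 4.79, Tcf7 between controls from -1.67 to 3.26 and Jup in the mean from -0.60 to 0.18.

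Calls appeared for 4 named genes: Nkd1 in the mean with DESeq2 (1.11), Nkd2 in the mean without P26 control replicate 1 (3.72) or without both libraries (3.42), and with Y-linked libraries Tcf7l2 in the difference (3.83) and Jup at 5 days (-2.67) and in the difference (-3.67). Among the fold changes printed as results, 338 other values kept sign and side of the threshold, and 550 did with 1 library left out, though not their size. Effects smaller than their SE are outside this count and turned sign more often: Tcf7 at 5 days ran from -1.34 to 3.32 (same sign in 19 of 24 alternatives) and Apc at 2 days kept its sign in 18 of 25. The median of the target genes at 5 days moved from 0.33 to 2.00 without both libraries, and at 2 days from 1.03 to 0.049 with the sample sheet's grouping. With 3 controls per age, effects of several SE were also not called in the main fit. Examples are Nkd1 in the mean of both (1.12 ± 0.30) and Jup at 5 days (-1.58 ± 0.45). A missing call therefore does not exclude effects of that size at this depth and spread.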
